A study of Rattus norvegicus with 12 samples.

Results

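The genes that encode the myosin heavy chains of skeletal muscle were followed through 12 RNA-seq libraries of rat muscle. The 6 genes were taken by identifier (Myh1, ENSMUSG00000056328; Myh2, ENSMUSG00000033196; Myh3, ENSMUSG00000020908; Myh4, ENSMUSG00000057003; Myh7, ENSMUSG00000053093; Myh8, ENSMUSG00000055775), out of 56953 genes listed in each of 2 count tables. The set was chosen with earlier results of these data known. All 6 were present in both tables, and all 6 were among the 10450 genes that passed the filter on low counts. The animals were Long-Evans rats labelled as wild type (WT), an outbred laboratory strain, and no sample was labelled with a transgene. Tissue came from where the implant or surgery had been placed. The labels describe 6 back muscle and 6 leg muscle samples. In each muscle, 3 samples were from animals injected with a magnetic fluid (MFIT) and 3 from untreated or sham-operated controls (NT). The labels do not name the muscle within the back or the leg.

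The columns of the count tables carry the muscle and the code ST or WT with a number from 1 to 3. The muscle in a column name matches the library names in the labels. The codes do not: ST occurs in no label, and WT is the genotype of every sample. No source used here says which code stands for the injected muscle. The libraries are therefore named by muscle and code (back ST1, leg WT2), and no difference between the codes is given a treatment direction. Collection on 2 different days is stated for the series but no day is given for a sample. Day therefore cannot be told apart from muscle, from code or from differences between libraries of the same code.

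Myosin heavy chain is the motor protein of the thick filament, and the isoform in a fibre largely sets how fast the fibre shortens. In adult rodents, Myh7 encodes the slow isoform of type I fibres, Myh2 that of fast oxidative type IIa fibres, Myh1 that of type IIx fibres and Myh4 that of the fastest, most glycolytic type IIb fibres. Myh3 (embryonic) and Myh8 (perinatal) are the isoforms of developing muscle and are made again when fibres regenerate. In the rat annotation (RefSeq, GRCr8), Myh3, Myh2, Myh1, Myh4 and Myh8 are consecutive protein-coding genes on chromosome 10, and Myh7 lies on chromosome 15.

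Myh1, Myh2 and Myh4 are the 3 fast genes among whose reads the libraries differ below, and their rat upstream sequences are shown because they share an identical stretch. Each is printed 5′ to 3′ up to the gene's first listed start, from RefSeq (GRCr8, plus strand), with the longest run of bases common to all 3 in capitals. The positions are chr10:52355489-52355738 for Myh2, chr10:52384662-52384809 for Myh1 and chr10:52421898-52422147 for Myh4.
Myh2: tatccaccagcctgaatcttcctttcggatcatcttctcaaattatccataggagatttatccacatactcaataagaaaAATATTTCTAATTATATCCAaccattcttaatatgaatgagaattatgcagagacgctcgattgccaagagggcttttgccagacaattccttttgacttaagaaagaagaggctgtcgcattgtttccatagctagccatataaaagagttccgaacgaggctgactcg
Myh1: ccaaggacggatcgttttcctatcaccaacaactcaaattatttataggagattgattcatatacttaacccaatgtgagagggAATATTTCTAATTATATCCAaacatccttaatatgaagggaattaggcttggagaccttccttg
Myh4: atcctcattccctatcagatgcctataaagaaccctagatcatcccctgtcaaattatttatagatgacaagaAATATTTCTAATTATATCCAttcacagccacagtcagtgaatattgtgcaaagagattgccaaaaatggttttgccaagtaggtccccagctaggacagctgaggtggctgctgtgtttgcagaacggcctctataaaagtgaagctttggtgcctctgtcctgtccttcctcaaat

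The shared run, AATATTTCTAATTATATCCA, is 20 bases long. It was picked as the longest run common to Myh1, Myh2 and Myh4, so its presence in those 3 was fixed by that choice. Searched on both strands in the 250 bases before each listed start, it was not found in the windows of Myh3, Myh7 or Myh8. Among all 33469 upstream windows of the rat table, 5 (0.0149%) held it: those of Myh1, Myh2 and Myh4, and 2 entries of a long non-coding RNA whose annotated span overlaps Myh1. The match is a property of the reference sequence and was not measured in these libraries.

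Reads assigned to genes numbered between 3329994 and 7164682 per library (median 4851270). They were 30.3% to 36.4% of all reads, since 52.4% to 61.2% of reads were unmapped in the deposited tables and 4.61% to 7.31% were ambiguous between genes. Another 3.07% to 3.72% were multimapping. The gene identifiers are those of mouse although the tissue is rat. The myosin heavy chain genes are close copies of one another, so reads that fit more than 1 of them, or that differ between rat and mouse, could be lost or placed with the wrong copy. How much this changed the counts was not tested. No source used here says whether strand was used in counting, and the rat annotation lists long non-coding RNAs that overlap Myh1 and Myh7. It also lists a microRNA and a protein-coding entry that overlap Myh7. The 6 genes together took between 9.98% and 13.5% of gene reads in every library, so genes that define striated muscle were abundant in all 12. Markers of other cell types were not analysed here, because the tables do not pair identifiers with symbols.

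Back ST2 and back ST3 stood apart from the other back libraries across all genes tested. Pearson's r of log2 CPM (gene counts scaled to equal library size, defined below), computed across 10450 genes, averaged 0.965 between back ST2 and the leg libraries but 0.941 between back ST2 and the back WT libraries. For back ST3 the 2 means were 0.956 and 0.953. Back ST1, by contrast, had a mean r of 0.980 with back WT and 0.938 with the leg libraries. Leaving out the 6 myosin heavy chain genes gave 0.9645 (leg) and 0.9408 (back WT) for back ST2, and 0.9556 and 0.9525 for back ST3. Since 6 of 10450 genes weigh little in such an r, little change was possible. Ambiguous reads were also least frequent in these libraries, at 4.70% in back ST2 and 4.61% in back ST3, against 6.52% to 7.31% in the other 4 back libraries. Whether the 2 libraries hold the muscle that their column names give was not tested, and every back mean and every ST value of back muscle below includes them unless stated. The comparison between the muscles is also given without both of them. The comparisons between the codes are given with 1 of them left out at a time, since no fit without both was run there.

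**Figure D1:**
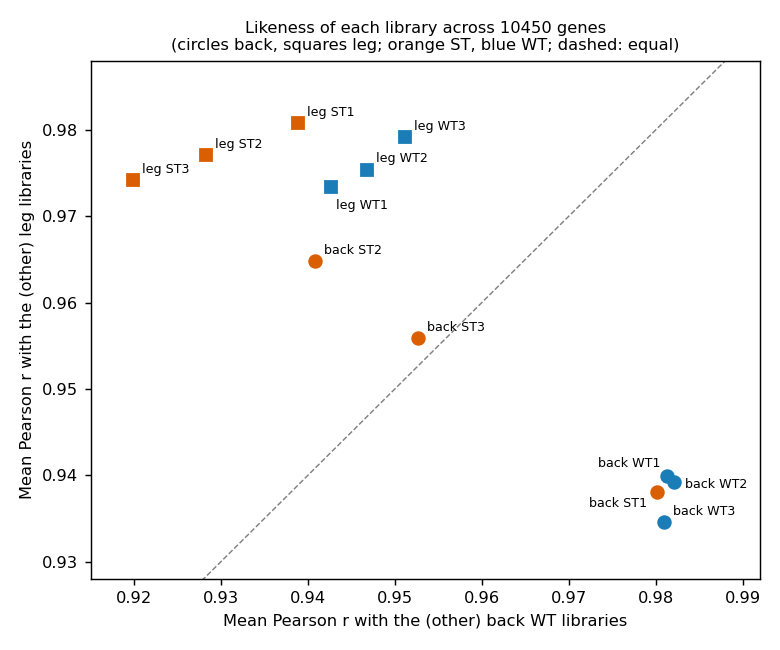
Each point is 1 library, placed by its mean Pearson r (no unit) with the back WT libraries (horizontal) and with the leg libraries (vertical) across 10450 genes, itself left out. Back ST1 lies with the back WT libraries near 0.980 on the horizontal axis, while back ST2 and back ST3 lie above the dashed line of equal likeness, toward the leg libraries.

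Leg muscle held less Myh4 and more Myh1, Myh2 and Myh7 than back muscle. Levels are CPM, gene counts per 1e6 gene reads, with library sizes scaled by the trimmed mean of M-values (TMM). They are compared between libraries for 1 gene at a time, not between genes, since they are not corrected for transcript length. Of the 6 genes, 5 passed the test between the muscles (edgeR quasi-likelihood, adjusted p below 0.05 over 10450 genes): 3 were higher in leg and 2 were lower. Over all genes tested, 22.6% passed, 11.7% higher and 10.9% lower. The median size of the log2 fold change was 0.94 over the 6 genes and 0.22 over all genes tested. In bulk tissue, fewer fibres of a type and less RNA per fibre cannot be told apart.

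Myh4, the type IIb gene, had the most reads of the 6 in every library, in counts not divided by transcript length. In back muscle its level was 138932, 64872 and 99812 CPM in ST1, ST2 and ST3, and 111067, 118790 and 117261 CPM in WT1, WT2 and WT3. In leg muscle it was 61025, 58673 and 54183 CPM in the ST libraries and 47703, 50199.6 and 56961 CPM in the WT libraries. The 2 muscles did not overlap, though the lowest back library, ST2, lay only just above the highest leg library. Non-overlap between the muscles was found for 6.05% of all genes tested. The log2 fold change, leg minus back, was -0.98 ± 0.15 (SE, n = 6 libraries per muscle; edgeR adjusted p = 0.000339).

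Myh1, the type IIx gene, was low in 4 back libraries and high in the other two. It was at 6380.35 CPM in back ST1, 23994 in ST2 and 16187 in ST3, against 7624, 6509.96 and 9332 in back WT1 to WT3. The leg libraries were at 24249, 21565 and 20833 CPM (ST) and 29814, 30030.5 and 26516 CPM (WT). Back ST2 thus fell inside the range of the leg libraries, and the muscles overlapped. The log2 fold change, leg minus back, was 1.20 ± 0.22 (SE, n = 6 per muscle; edgeR adjusted p = 0.00138).

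Myh2, the type IIa gene, followed the same order of back libraries as Myh1 at the top, with ST2 first and ST3 next. Its back levels were 3638, 17685 and 10088 CPM in ST1 to ST3 and 5617, 4390.0 and 5500.4 CPM in WT1 to WT3. Its leg levels were 12412, 12436 and 11247 CPM in the ST libraries and 16016 (WT1), 15713 (WT2) and 14868 (WT3). Back ST2 was higher than every leg library for this gene. The log2 fold change, leg minus back, was 0.89 ± 0.25 (SE, n = 6 per muscle; edgeR adjusted p = 0.0164).

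Myh7, the slow gene, had the largest difference between the muscles among the 6 genes. All 6 leg libraries lay close together, from 3581 to 4242 CPM with a mean of 3925 ± 253 (SD, n = 6). The back libraries were at 0.493, 1531 and 518 CPM in ST1, ST2 and ST3, and at 241, 9.23 and 5.37 CPM in WT1, WT2 and WT3. Every back library was below every leg library, and the log2 fold change was 4.02 ± 0.98 (SE, n = 6 per muscle; edgeR adjusted p = 0.00838). The size of that value depends on which back libraries enter: it ranged from 3.73 without back ST1 to 5.77 without back WT1, with adjusted p between 0.000105 and 0.0229 over the 12 fits that left out 1 library each.

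The spread of Myh7 within back muscle was wider than that of the other 5 genes in either muscle. Back ST1 held 3 reads of the gene and back ST2 held 5471, a ratio of 3103 after scaling, with an exact 95% interval for counting error of 1061 to 15053. Back WT1 (1026 reads) was 26.2 times as high as back WT2 (52 reads; interval 19.8 to 35.3). The highest leg library was 1.18 times as high as the lowest. For the other 5 genes, the highest back library was 1.97 to 4.86 times as high as the lowest. The 2 codes overlapped in back muscle, and high and low libraries occurred under each.

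**Figure D2:**
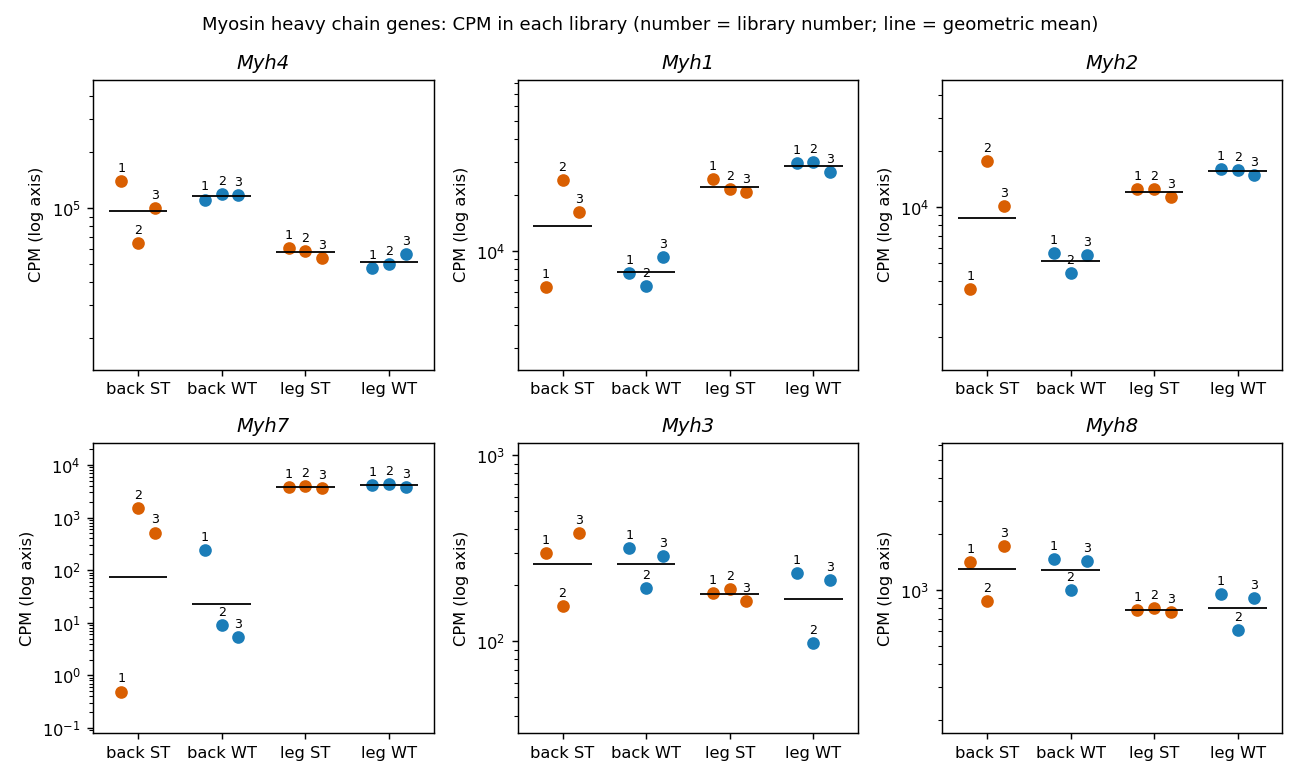
Level of each gene in every library, in CPM on a log axis, grouped by muscle and column code. Points are single libraries with their number, and the lines are geometric means over 3 libraries. Back ST2 and ST3 sit above the other back libraries for Myh1, Myh2 and Myh7, and Myh7 in back muscle runs from 0.493 to 1531 CPM while the leg libraries stay between 3581 and 4242.

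The isoforms of developing muscle were at lower counts and differed less. Myh8 ranged from 876 to 1726 CPM in back muscle (median 1421) and from 608 to 945 CPM in leg muscle (median 791), and only back ST2, the lowest back library, overlapped the leg range. Its log2 fold change was -0.72 ± 0.16 (SE, n = 6 per muscle; edgeR adjusted p = 0.004). Myh3 ranged from 155 to 381 CPM in back muscle and from 98.5 to 233 CPM in leg muscle, with overlap. Its log2 fold change of -0.59 ± 0.21 (SE) did not pass the threshold (edgeR adjusted p = 0.0602). Myh3 passed in 3 of the 12 fits that left out 1 library each: those without back ST2, back WT2 or leg WT1. The lowest adjusted p of the 12 was 0.00623 and the highest, without back WT1, was 0.141.

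The reads of Myh8 and Myh3 kept a steadier proportion to each other than to Myh4. There were 4.53 to 5.65 reads of Myh8 per read of Myh3 in back muscle and 4.06 to 6.17 in leg muscle. Myh8 reads were 0.842% to 1.73% of Myh4 reads in back muscle and 1.21% to 1.98% in leg muscle. Whether some Myh8 and Myh3 reads came from the more abundant copies was not tested.

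Divided among the 6 genes, the reads showed a back pattern dominated by Myh4 and a leg pattern shared with Myh1 and Myh2. These shares are of read counts, so a longer transcript takes a larger share, and they are compared here only for 1 gene across libraries. Myh4 took 92.2% of the 6 genes' reads in back ST1 and 87.6% to 90.8% in back WT, but 77.5% in back ST3 and 59.5% in back ST2. In leg muscle it took 59.6% to 60.1% in the ST libraries and 48.2% to 55.1% in the WT libraries. Back ST2 therefore had a Myh4 share just below that of the leg ST libraries.

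The share of Myh7 in back ST2 was well below that of the leg libraries, while the shares of Myh1, Myh2 and Myh4 were within or close to the edge of the leg range. For Myh7 it was 1.40% in back ST2 and 0.403% in back ST3, against 3.68% to 4.24% in the leg libraries. Myh1 took 22.0% in back ST2 and 22.1% to 30.1% in the leg libraries. Myh2 took 16.2% in back ST2 and in leg WT1, the highest leg library, and 2.41% to 4.45% in back ST1 and the back WT libraries. Myh7 reads were 8.66% of Myh2 reads at most in back muscle and 25.9% to 31.8% in leg muscle. Reads of Myh1 per read of Myh2 stayed between 1.36 and 1.75 in back muscle and between 1.73 and 1.95 in leg muscle, so these genes moved nearly in proportion while both changed several-fold between back libraries.

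**Figure D3:**
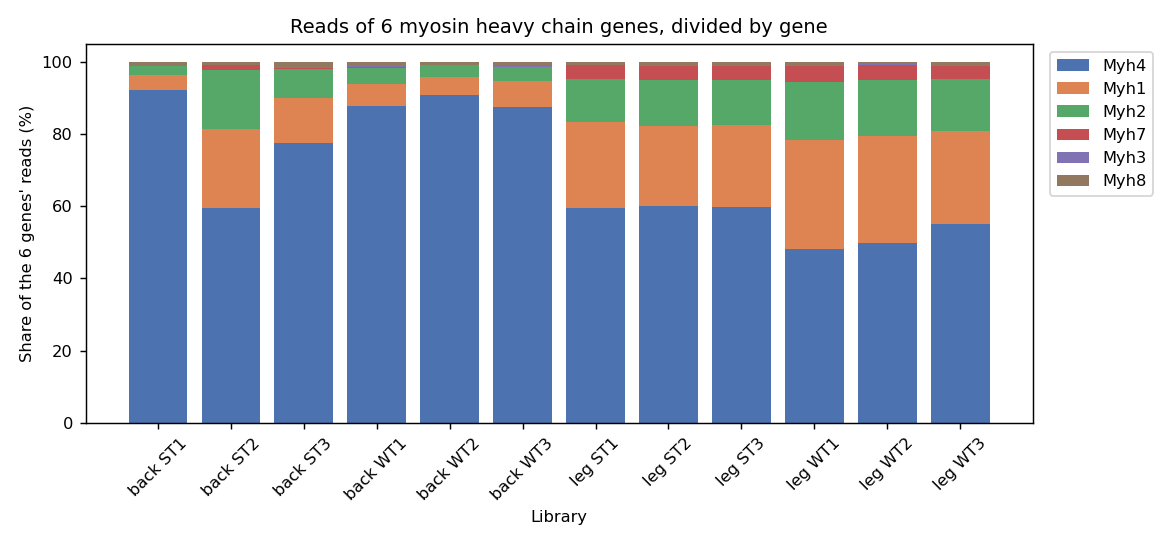
Share of the 6 genes' reads (%, not corrected for transcript length) taken by each gene in each of the 12 libraries. Myh4 fills 87.6% to 92.2% of the bar in back ST1 and the back WT libraries, 59.5% in back ST2 and 48.2% to 60.1% in the leg libraries, where Myh1, Myh2 and Myh7 take up the rest.

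Within the WT libraries alone, the muscles differed by more than in the pooled comparison for 4 of the genes. With 3 libraries per muscle, the log2 fold change, leg minus back, was -1.15 ± 0.07 (SE) for Myh4, 1.89 ± 0.10 for Myh1, 1.60 ± 0.09 for Myh2 and 5.59 ± 0.85 for Myh7. The edgeR adjusted p-values were 4.78e-09, 2.75e-09, 3.05e-09 and 0.000165. Myh8 also passed, at -0.65 ± 0.16, and Myh3 did not, at -0.53 ± 0.23 (edgeR adjusted p = 0.0062 and 0.12).

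Within the ST libraries alone, none of the 6 genes passed the test between the muscles. The log2 fold change was 0.52 ± 0.40 (SE, n = 3 per muscle) for Myh1 and 0.20 ± 0.45 for Myh2, with edgeR adjusted p of 0.543 and 0.86. Myh7 was at 2.46 ± 1.34 and Myh4 at -0.80 ± 0.32, with edgeR adjusted p of 0.368 and 0.223. Myh8 and Myh3 were at -0.78 ± 0.23 and -0.63 ± 0.27, as large as in the pooled comparison, with edgeR adjusted p of 0.111 and 0.25. Over all genes tested, 224 (2.29%) passed in the ST libraries and 2164 (22.4%) in the WT libraries. Without back ST2 and back ST3, which leaves ST1 as the only back ST library and assumes that it varies like the rest, all 6 genes passed, as did 32.2% of all genes tested. The log2 fold changes in that fit were -1.23 for Myh4, 1.83 for Myh1, 1.64 for Myh2, -0.65 for Myh3 and -0.78 for Myh8. That of Myh7 was 9.18 ± 1.05 (SE), which rests in part on the 3 reads of back ST1.

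**Figure D4:**
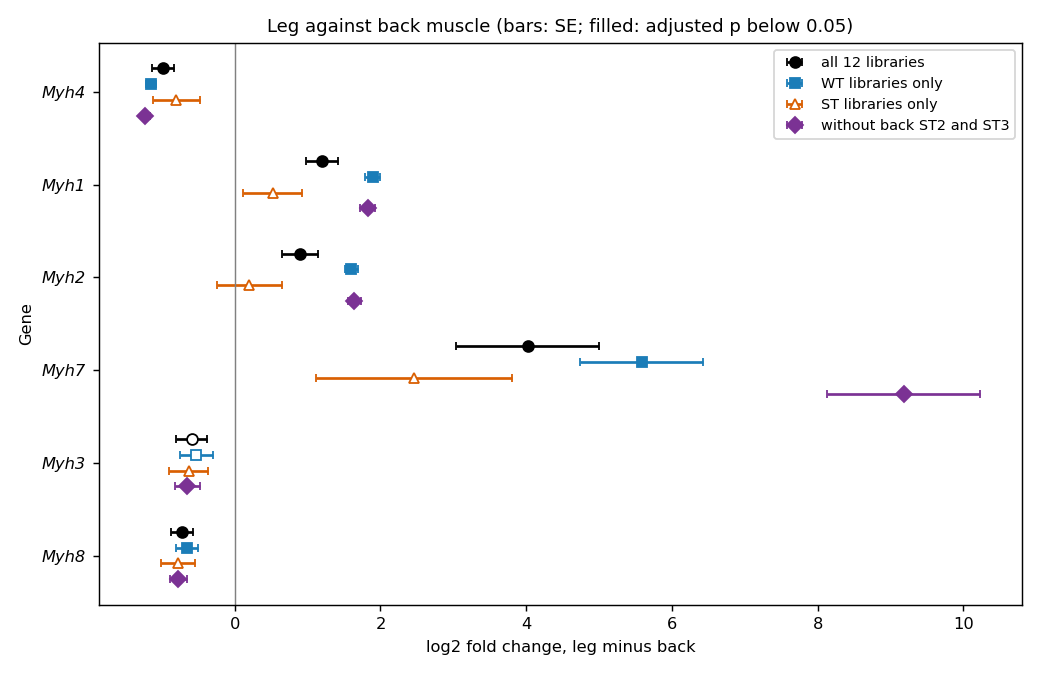
Log2 fold change, leg minus back, of each gene in 4 sets of libraries. Points are edgeR estimates, bars are 1 SE, and filled points had an adjusted p below 0.05. In the ST libraries alone no point is filled, and Myh7 runs from 2.46 in that set to 9.18 without back ST2 and back ST3.

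Between the ST and WT columns of back muscle, 0 of the 6 genes passed the test, while 3.78% of all genes did. Myh1 (1.98-fold), Myh2 (2.03-fold) and Myh7 (7.97-fold) had higher fitted levels in ST, with log2 fold changes of 0.99 ± 0.31, 1.02 ± 0.35 and 2.99 ± 1.34 (SE, n = 3 per code) and edgeR adjusted p of 0.084, 0.104 and 0.194. These 3 were the ones with an unadjusted p below 0.05, which 22.9% of all genes had. DESeq2 called 0 of the 6, and 596 of all 10450 genes tested. The 2 codes overlapped for all 6 genes. For Myh1, Myh2, Myh4 and Myh7, back ST1 lay on the opposite side of the WT libraries from back ST2 and back ST3. Non-overlap was found for 22.2% of all genes tested. For Myh4 the log2 fold change was -0.19 ± 0.21, with a 95% interval of -0.64 to 0.26, and for Myh8 it was 0.04 ± 0.22, with an interval of -0.43 to 0.51.

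These outcomes in back muscle depended on single libraries and on the filter. Without back ST1, 4 of the 6 genes passed: Myh1 at a log2 fold change of 1.36 ± 0.15 (SE), Myh2 at 1.43 ± 0.16, Myh7 at 3.57 ± 0.78 and Myh4 at -0.49 ± 0.13, with edgeR adjusted p of 1.43e-06, 1.96e-06, 0.00243 and 0.0119. The number of genes that passed over the whole table was 2336 (21.7%) in place of 395. Without back ST2, the log2 fold changes were 0.53 for Myh1, 0.41 for Myh2, 1.60 for Myh7 and 0.04 for Myh4, with edgeR adjusted p of 0.339, 0.483, 0.564 and 0.926. Without back ST3, those of Myh1, Myh2 and Myh7 were 0.95, 1.03 and 3.14 (edgeR adjusted p = 0.212, 0.226 and 0.312). Without back WT1, that of Myh7 was 6.48 ± 1.63 (SE; edgeR adjusted p = 0.087). With no filter on low counts, Myh1, Myh2 and Myh7 passed at nearly unchanged fold changes (edgeR adjusted p = 2.46e-08, 6.17e-09 and 2.31e-71), in a fit that estimated no gene-specific spread. That fit called 1173 of all 20341 genes tested. The count over all genes was also below 100 without back ST2 (87), back ST3 (40), back WT1 (31), back WT2 (30) or back WT3 (34). With the back table fitted alone, 2 genes (0.0211%) passed and none was a myosin heavy chain gene.

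Between the ST and WT columns of leg muscle, Myh1 and Myh2 were lower in every ST library than in any WT library, in CPM scaled by TMM. Non-overlap was found for 25% of all genes tested. In the fit over both tables, 0 of the 6 genes passed, 0 had an unadjusted p below 0.05 and DESeq2 called 0. Over all genes tested, 0.0766% passed with edgeR and 14.6% had an unadjusted p below 0.05, and DESeq2 called 68 of 10450. The log2 fold change, ST minus WT, was -0.37 ± 0.31 (SE, n = 3 per code) for Myh1 and -0.37 ± 0.35 for Myh2, with edgeR adjusted p of 0.622 and 0.673. That fit uses 1 spread per gene for both muscles, and for Myh1 the highest library was 3.76 times the lowest in back muscle and 1.44 times in leg muscle. With the leg table fitted alone, the values were -0.37 ± 0.09 for Myh1 and -0.37 ± 0.08 for Myh2, with edgeR adjusted p of 0.0131 and 0.00901, and 694 genes (7.08%) passed in place of 8. For Myh4 and Myh7 the codes overlapped, and their values in the leg table alone were 0.17 ± 0.09 and -0.12 ± 0.08 (edgeR adjusted p = 0.284 and 0.399). The size for Myh1 and Myh2 depended on TMM. With library totals in the fit over both tables, it was -0.19 ± 0.33 for Myh1 and -0.18 ± 0.37 for Myh2 (SE). The edgeR adjusted p-values were 0.783 and 0.818. Scaled by library totals, Myh1 was at 27022 CPM in leg ST1 and 27062 CPM in leg WT3.

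The difference between the codes was itself compared between the muscles. For Myh1 and Myh2, the log2 difference of ST minus WT in leg less that in back was -1.36 ± 0.44 and -1.39 ± 0.49 (SE), and neither passed (edgeR adjusted p = 0.297 and 0.35). Over all genes, edgeR called 0 (0%), with 1074 (10.3%) at an unadjusted p below 0.05, and DESeq2 called 59. Without back ST1, edgeR called 662 genes (6.16%), among them 4 of the 6: Myh1, Myh2, Myh4 and Myh7, with adjusted p of 1.34e-05, 2.12e-05, 0.0293 and 0.0316. With back ST2 left out instead, edgeR called 0 genes. Myh1 and Myh2 were then at -0.91 and -0.79 (edgeR adjusted p = 0.461 and 0.553). With back ST3 left out instead, edgeR also called 0 genes. Myh1 and Myh2 were then at -1.33 and -1.41 (edgeR adjusted p = 0.403 and 0.43). Myh3 and Myh8 showed no difference between codes that passed in either muscle under any setting run. Their 95% intervals in the fit over both tables reached from -0.57 to 0.71 for Myh3 and from -0.43 to 0.51 for Myh8 in back muscle.

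**Figure D5:**
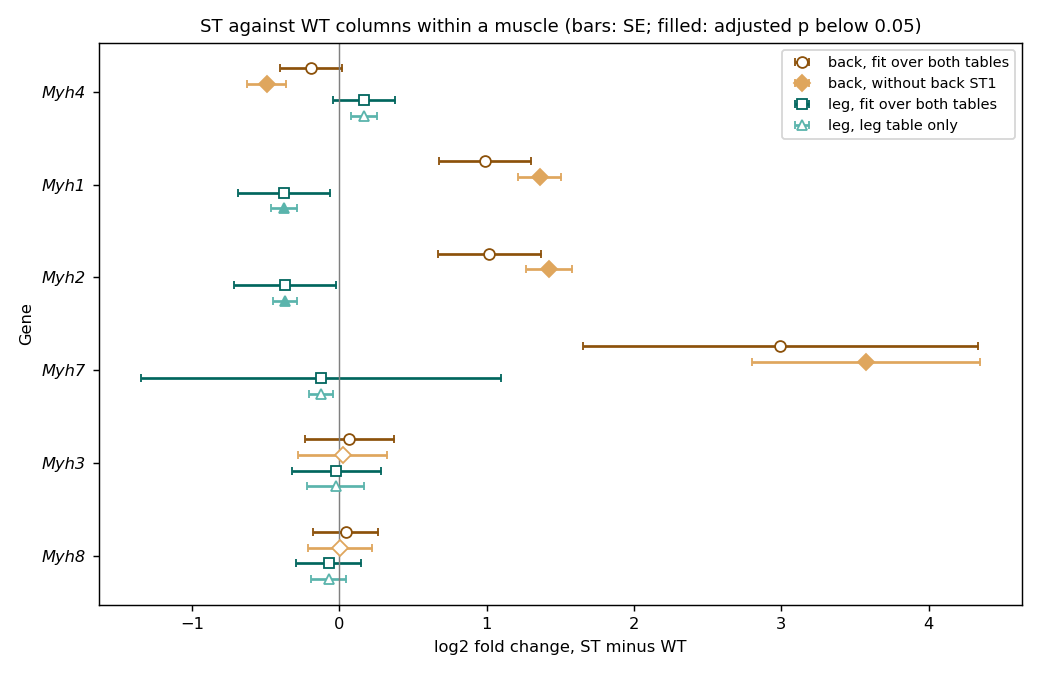
Log2 fold change, ST minus WT columns, of each gene within back and leg muscle. Points are edgeR estimates, bars are 1 SE, and filled points had an adjusted p below 0.05. Among the 4 fits plotted, points are filled in back muscle for 4 genes when back ST1 is left out, and in leg muscle for Myh1 and Myh2 when the leg table is fitted alone.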

How the data were processed

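The authors deposited raw read counts per gene for each muscle, with 4 summary rows (unmapped, multimapping, without a feature, ambiguous) that were left out of library sizes and tests. Per the submitters' processing notes the tools were STAR and DESeq2 (no versions); no source used here names the build or annotation. All 12 columns were matched to a muscle by name, and 0 columns were left unused. The 6 genes were named from the identifiers that define the set, and all 6 are reported. The members, comparisons and alternatives were chosen with earlier results of these data known.

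Counts of both tables were fitted together in edgeR 4.0.16 (R 4.3.3; filterByExpr, TMM, glmQLFit, glmQLFTest) with 1 mean per muscle and code, and p-values were adjusted by Benjamini-Hochberg over all genes tested. The muscle comparison averages the codes. Samples are labelled as biological replicates. DESeq2 1.42.0 was an alternative. The fit was tested on simulated counts with the same spread in every group, so that test does not cover groups of unequal spread. Library pairs of the same muscle and code differed beyond sampling noise (chi-square per degree of freedom 2.20 to 73.6), so all 12 were kept. Depth limits precision only for low counts, such as Myh7 in back muscle. The intervals of the Myh7 read ratios cover counting error only. Those of the log2 fold changes come from the edgeR fit and include the spread between libraries.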

Additional observations from a re-analysis of the deposited data

Results flagged for a closer look

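The level of Myh7 in back ST2, 1531 CPM, stood apart from the other 5 back libraries, which ranged from 0.493 to 518 CPM. Its gap to the next library was 0.662 of the whole range of the 6, above Dixon's critical value of 0.625. It was the only one of 12 sets tested (6 genes in 2 muscles) to pass. Chance flags about 1 set in 20 where values are normally spread, which was not tested for these levels. The same library was at 23994 CPM for Myh1 and 17685 CPM for Myh2, the highest of the back libraries, where the gap was 0.443 and 0.541 of the range and did not pass.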

How the results depend on the processing

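For leg against back muscle, the 6 genes kept their direction under every alternative run, and those called differed only in Myh3 except in the ST libraries alone, where none was called. Over all genes the call count was 2366, between 1858 and 2766 when 1 library was left out, 224 in the ST libraries alone and 3608 without back ST2 and back ST3 (the last chosen after seeing the data, like the fits of single tables). Between codes, leaving out 1 library gave 30 to 2336 calls in back muscle, 2 to 495 in leg muscle and 0 to 662 for their difference. The settings that moved these counts (395, 8 and 0) were as follows. Library totals without TMM gave 784 and 21. DESeq2 gave 596, 68 and 59. No low-count filter gave 1173, 503 and 280, out of 20341 genes tested. The cause was not tested, except that without the filter edgeR estimated no gene-specific spread. Single tables gave 2 (back) and 694 (leg). Library totals alone moved the median log2 fold change of all genes by 0.23 in leg against back, and the share of calls that were higher from 51.7% to 87.8% (from 63.3% to 85.6% between codes in back muscle and from 62.5% to 90.5% in leg muscle). Myh4, Myh1, Myh2, Myh7 and Myh8 were still called there, at -0.74, 1.39, 1.09, 4.19 and -0.49, as were 3091 of all 10450 genes tested. Between the codes in back muscle, Myh1 passed (edgeR adjusted p = 0.0413). Myh2 passed only just, with an edgeR adjusted p that rounds to 0.05. Without the filter, Myh1, Myh2 and Myh7 passed between the codes in back muscle and for the difference between muscles (the latter with edgeR adjusted p of 1.31e-07, 5.69e-08 and 7.53e-43).

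With the column number as a replicate block, 2196, 442, 10 and 0 genes were called, and Myh3 passed between the muscles at -0.55 (adjusted p = 0.0319). Same-numbered ST and WT libraries of a muscle did not deviate together (r from -0.099 to 0.048). With 3 libraries per code this cannot exclude pairing. Whether same-numbered back and leg libraries came from 1 animal was not tested.

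Among the 6 genes, no value that had passed changed sign, and the sign of 20 of 438 recomputed values differed, none of them past the threshold. Signs of other genes were not compared. In leg muscle between codes, these were Myh7 (0.063), Myh3 (0.167) and Myh8 (0.117) with library totals, and Myh3 with the block (0.062, and 0.061 for the difference between muscles). Leaving out 1 library gave a range of -0.49 to 0.045 for Myh4, -0.23 to 0.35 for Myh3 and -0.19 to 0.27 for Myh8 in back muscle. In leg muscle it gave -0.32 to 0.19 for Myh3 and -0.26 to 0.040 for Myh8. For the difference it gave -0.39 to 0.20 for Myh3 and -0.35 to 0.11 for Myh8.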
